A study of Mus musculus with 2 samples.

Results

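The Zbtb genes encode transcription factors with a BTB domain and zinc fingers. They were read here on arrays of mouse diaphragm muscle with and without one member of the family, Zbtb18, also called RP58. Members were all genes whose only symbol on a probe set of the array annotation starts with Zbtb followed by a digit, and the rule used no measured value. It gave 40 genes, read by 87 probe sets, of 18193 genes with a single symbol on the array. The data comprise 1 array of the RP58-/- genotype (knockout) and 1 array of the RP58+/+ genotype (wild type), both from skeletal muscle of the diaphragm at E18.5 (late gestation) in the C57/BL6 strain. The sources used here state neither how many embryos gave the RNA nor which part of the gene the knockout removes. With 1 array for each genotype no difference has a replicate check, no test was run, and precision is limited by having so few arrays. In bulk tissue, fewer cells of a type and less RNA per cell cannot be told apart.

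In these proteins the zinc fingers read a DNA sequence, while the BTB domain joins the protein to itself, to related proteins and to corepressor complexes with histone deacetylases. Most members studied so far act as repressors, and several set the fate of cell lineages. RP58 represses its targets in the developing cerebral cortex and in muscle precursors, where genes of the Id family, inhibitors of MyoD-type factors, are among those it represses.

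Values are RMA log2 signals as deposited, and each difference is the knockout signal minus the wild-type signal. Signals of different genes come from different probes and cannot be ranked against each other. Each gene takes its value from the brightest of its probe sets. It was taken as above the floor when the mean of both arrays reached a log2 signal of 5.52, the 40th percentile over the whole array. Of the 40 members, 36 were above this floor, as were 14093 of the 18193 genes. Higher and lower are used for sizes of at least 1.5-fold, or 0.58 on the log2 scale, and smaller differences are given as values. The one repeat measurement on these arrays is that of several probe sets for a gene, whose differences had a pooled SD of 0.28 over 5675 genes above the floor. That SD covers probe sets and isoforms and leaves out embryos, dissection and hybridisation.

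Over 45101 probe sets the correlation between the arrays was r = 0.985, with median signals of 6.03 in the knockout and 6.02 in the wild type. Markers of muscle fibres, the labelled tissue, were read above the floor on both arrays, with mean log2 signals of 10.71 in the knockout and 12.01 in the wild type over 8 genes. The samples also differ in sex-linked transcripts. The Y-linked gene Eif2s3y stood at 8.58 in the knockout and 3.59 in the wild type, and the X-inactivation RNA Xist stood at 6.96 in the knockout and 11.47 in the wild type. Genotype and sex-linked signal cannot be told apart with these arrays.

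The transcript of the targeted gene was still read in the knockout. Zbtb18 had a log2 signal of 9.21 in the knockout and 8.91 in the wild type, a difference of 0.30 (1.23-fold higher) from its only probe set. Of all genes above the floor, 32.2% differed by more than this in either direction. The value lies just outside 1 pooled probe set SD and inside the 1.5-fold rule, and the signal was not lower in the knockout. Whether the probe set lies in the removed part of the gene is not given, so the signal does not check the genotype label, and directions below rest on that label. The closest relative of Zbtb18, Zbtb42, is known in mouse from the nuclei beneath the neuromuscular junction. It was at 7.10 in the knockout and 7.11 in the wild type, a difference of -0.02.

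RP58 is known to bind DNA around the letters CATCTG, usually with an A before them, and the gene's own start regions hold these letters. RefSeq promoter windows (build GRCm38.p6, 250 bases before to 50 after each listed start) were searched on both strands for CATCTG, whose reverse complement is CAGATG. Zbtb18 has 5 listed starts, some with overlapping windows, and all 5 windows hold the letters, at 4 distinct positions. At 2 of these positions the longer form ACATCTG is present. The 4 sites are shown with 10 bases on each side, read along the gene's strand (+), with the letters in capitals.
Zbtb18 start 1, chr1:177442212-177442237: ggcggggccaCATCTGggccgcgccg
Zbtb18 starts 2 and 3, chr1:177444575-177444600: gtagcatttcCATCTGaacatgatgt
Zbtb18 start 4, chr1:177444713-177444738: ctccactttgCATCTGtctctcttag
Zbtb18 start 5, chr1:177445621-177445646: tcagctggatCAGATGtttataagct

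The upstream-most Zbtb18 window is shown over its 250 bases before the start (chr1:177442101-177442350, + strand), as the first window with the longer form. The window of the last listed start also carries that form.
Zbtb18 before start 1: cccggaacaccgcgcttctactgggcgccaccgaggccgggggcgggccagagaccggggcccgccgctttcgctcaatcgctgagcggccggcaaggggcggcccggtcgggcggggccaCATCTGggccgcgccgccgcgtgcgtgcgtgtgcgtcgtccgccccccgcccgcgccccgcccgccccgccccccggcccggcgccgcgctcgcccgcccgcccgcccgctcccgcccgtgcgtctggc

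Across all 32851 promoter windows, 17.2% hold CATCTG on either strand and 4.43% hold ACATCTG. Among 77 genes with 5 listed windows, 4 hold CATCTG in every window, and Zbtb18 is counted in both numbers. Promoter windows were found for 35 of the 40 members (not for Zbtb7c, Zbtb10, Zbtb16, Zbtb40 and Zbtb48), and 4 of the 35 hold CATCTG, against 19.2% of all genes with a window. Besides Zbtb18 these were Zbtb46, Zbtb38 and Zbtb3, shown here on each gene's own strand because they are the other members with the letters.
Zbtb46, chr2:181424561-181424586, - strand: ctccttagcaCATCTGtgctgcagag
Zbtb46, chr2:181424343-181424368, - strand: gcaagactccCAGATGaacaaccgaa
Zbtb38, chr9:96731843-96731868, - strand: accctgttacCAGATGgtgtctcccc
Zbtb38, chr9:96720024-96720049, - strand: ggctgcgcagCATCTGtgcgagcctg
Zbtb3, chr19:8802263-8802288, + strand: ctatgggaaaCAGATGaataagttca

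On these arrays the members with the letters differed by 0.30 (Zbtb18), 0.02 (Zbtb46), 0.17 (Zbtb38) and 0.23 (Zbtb3, under the floor) on their brightest probe sets. Another probe set of Zbtb38 was at -0.51, and another of Zbtb3, under the floor, was at 0.63, past the 1.5-fold line. A match of letters is a description of the sequence and does not show binding.

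Few Zbtb genes passed the size rule, a count near the background of all genes. Of 36 members above the floor, 0 were higher by 1.5-fold, where 3.83% of all genes above the floor were higher. One member, Zbtb14, was lower by 1.5-fold (1 of 36), where 6.51% of all genes were lower. The median difference of the members was 0.04, with 21 above 0 and 15 below, and the median over all genes was -0.003. The members ran from -0.63 (Zbtb14) to 0.44 (Zbtb49). Their differences had an SD of 0.23 between genes, smaller than the pooled probe set SD of 0.28, while the SD over all genes was 0.41. Of the 36 members, 28 (77.8%) differed by less than the pooled probe set SD, and of all genes 64.8% did. The paired plot of signals shows the knockout and wild-type points of most members close together.

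**Figure D1:**
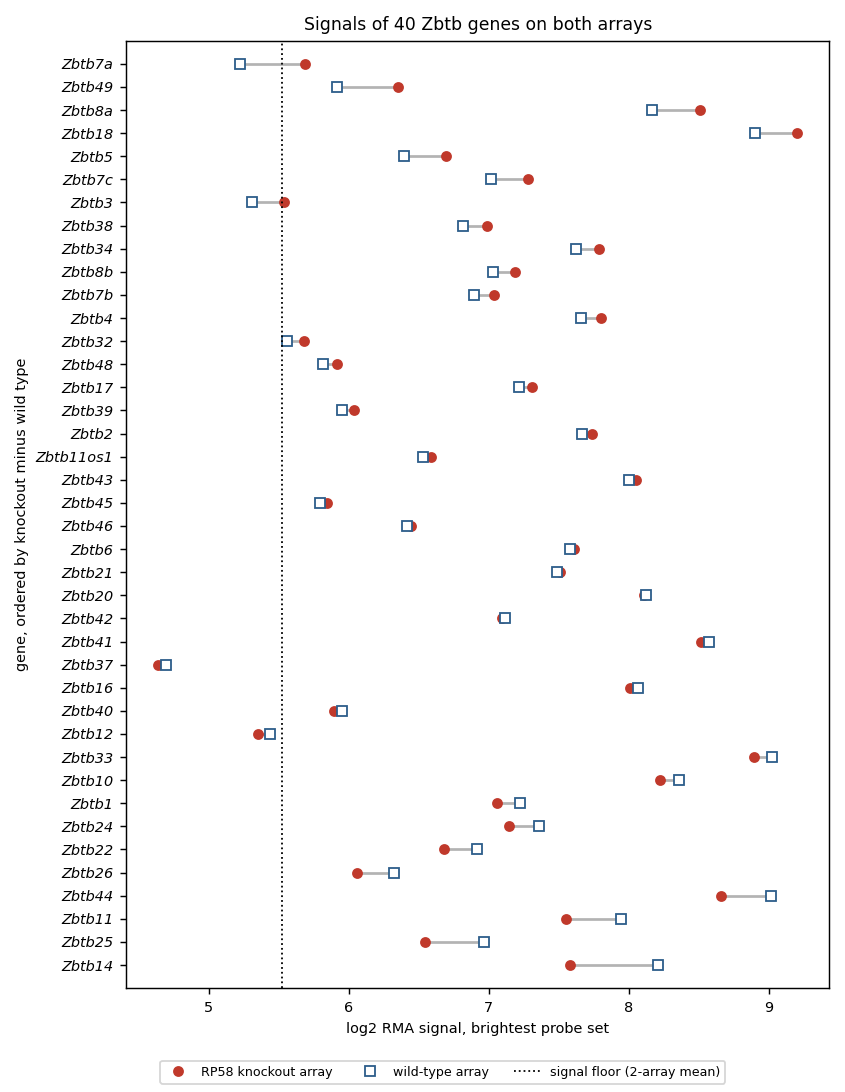
RMA log2 signal (horizontal axis) of the brightest probe set of each of the 40 Zbtb genes, with the knockout array as filled circles, the wild-type array as open squares and the signal floor of 5.52 as a dotted line. Rows run from Zbtb7a (0.46, under the floor by its mean) at the top to Zbtb14 (-0.63) at the bottom, and levels should be compared within a row only.

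**Figure D2:**
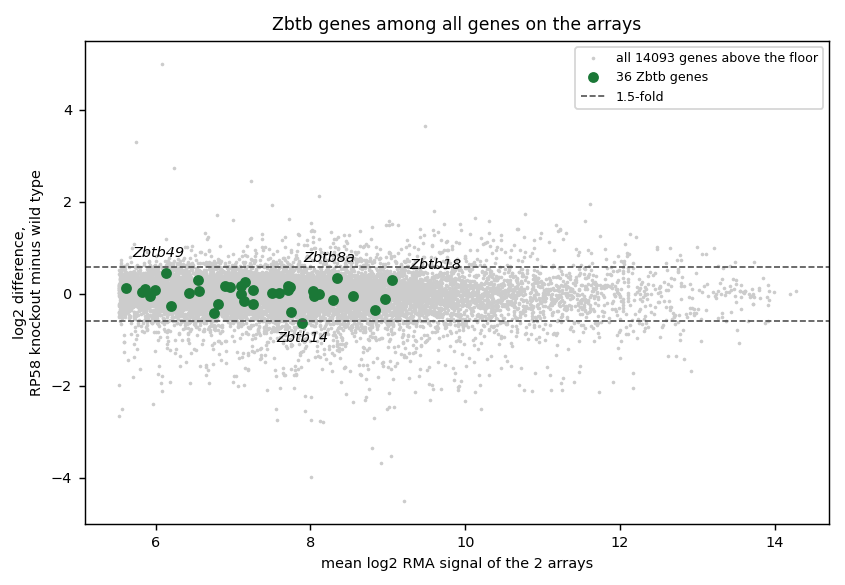
Difference of log2 signal, knockout minus wild type (vertical axis), against the mean log2 signal of both arrays (horizontal axis) for 14093 genes above the floor in grey and 36 Zbtb genes in green. Dashed lines mark 1.5-fold, and of the Zbtb genes only Zbtb14 lies past one of them.

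Zbtb14 (also called ZF5, first found as a factor that binds the Myc promoter) was the one member past the size rule, and its probe sets did not move together. Its brightest probe set read 7.58 in the knockout and 8.21 in the wild type, a difference of -0.63 (1.55-fold lower). A size above this was seen for 8.83% of all genes. The other 3 probe sets of Zbtb14, all above the floor, differed by -0.25, 0.27 and 0.09, and the mean of the 4 was -0.13, inside the size rule. Zbtb21, whose human protein is known to associate with that of Zbtb14, was at 7.51 in the knockout and 7.49 in the wild type.

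Of the 3 readers of methylated DNA, 0 reached 1.5-fold on their brightest probe sets, where 3.83% of all genes were higher and 6.51% lower. Zbtb33 (Kaiso), which binds methylated CpG pairs and a sequence of its own, had 8.90 in the knockout and 9.02 in the wild type, a difference of -0.13. It is the only X-linked member, and Xist differed by -4.51 on the same arrays; the part of sex in its value was not tested. Zbtb4 and Zbtb38, related methyl-CpG binders, differed by 0.14 and 0.17 on their brightest probe sets. Zbtb4 read 7.80 in the knockout and 7.66 in the wild type, and its 4 probe sets stayed between -0.04 and 0.14. Zbtb38 read 6.99 in the knockout and 6.82 in the wild type, and its other probe set above the floor was at -0.51, short of the 1.5-fold line on the other side of 0.

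Among regulators of blood cells, 0 of the 6 members above the floor reached 1.5-fold, and their median difference was -0.02. With so few genes a count of 0 is near the shares over all genes (3.83% higher, 6.51% lower), here and in the role groups that follow. Zbtb25 had the largest difference of these 6, with 6.54 in the knockout and 6.96 in the wild type (-0.42). Zbtb1, needed for lymphoid development, read 7.06 in the knockout and 7.23 in the wild type (-0.17). Zbtb7b (ThPOK), which commits thymocytes to the helper T cell fate, read 7.04 in the knockout and 6.89 in the wild type (0.14), with its other probe set at -0.03. Zbtb32, a repressor of activated T cells, lay just inside the floor at 5.68 in the knockout and 5.56 in the wild type (0.12). Zbtb16 (PLZF), needed by natural killer T cells and by spermatogonial stem cells, read 8.01 in the knockout and 8.07 in the wild type (-0.06). The next brightest Zbtb16 probe set was at 0.001 and the dimmest at -0.43. Zbtb46, a marker of classical dendritic cells that endothelium also expresses, was at 6.44 in the knockout and 6.42 in the wild type. All 4 Zbtb46 probe sets were above 0, from 0.02 to 0.27, each within 1 pooled SD. The seventh gene of the group, Zbtb7a (LRF), which directs red cell and lymphoid development, lay under the floor with 5.68 in the knockout and 5.22 in the wild type. Its 3 probe sets, all under the floor, differed by 0.46, 0.45 and -0.02.

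Blood cell markers were read beside these members. Of 9 T and B lymphocyte markers, 7 were read and 5 were above the floor, with a mean log2 signal over the 7 of 6.45 in the knockout and 6.24 in the wild type. The B cell gene Ms4a1 was higher at 0.63 and the other 4 lay between -0.03 and 0.29, the upper end being Cd8a. Of 5 dendritic cell markers, 4 were read, with mean signals of 6.10 in the knockout and 6.17 in the wild type. The 2 above the floor went opposite ways, with Flt3 at -0.34 and H2-Ab1 at 0.20. The erythroid markers, 3 of 5 read, had means of 7.78 in the knockout and 7.70 in the wild type. Of these, Alas2 was at 0.35 and Epb42 at -0.28, and Hba-a1 lay under the floor.

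Members known from metabolism and tissue development were also within 1.5-fold, 4 of 4. Zbtb20, which represses alpha-fetoprotein in the liver after birth, was read by 9 probe sets, the most of any member. Its brightest one stood at 8.11 in the knockout and 8.12 in the wild type, a difference of -0.01. The 7 probe sets above the floor ran from -0.44 to 0.30, and of the 2 under it one was at -0.73, past the 1.5-fold line. Zbtb7c read 7.28 in the knockout and 7.02 in the wild type (0.26), with its other probe sets, under the floor, at -0.23 and -0.13. Zbtb45 differed by 0.05 and Zbtb40, whose human gene is tied to bone density, by -0.06.

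In the group tied to the cell cycle, telomeres and genome upkeep, 8 of 8 members were above the floor, with Zbtb14 lower and 0 higher. Over all genes, 6.51% were lower and 3.83% higher, and with so few members this count is near those shares. The Zbtb14 value is that of its brightest probe set, which its other probe sets did not repeat. Zbtb49 had the highest difference of any member above the floor, with 6.35 in the knockout and 5.91 in the wild type (0.44), and its dimmer probe sets, under the floor, were at 0.19 and -0.25. Zbtb5, a repressor of the cell cycle inhibitor gene Cdkn1a, read 6.69 in the knockout and 6.39 in the wild type (0.30). Zbtb24, mutated in a human syndrome of immunodeficiency and unstable centromeres, read 7.15 in the knockout and 7.36 in the wild type (-0.21). Zbtb17 (Miz1), a partner of Myc, differed by 0.09, the telomere-binding Zbtb48 by 0.10 and Zbtb2 by 0.07. Zbtb10 read 8.23 in the knockout and 8.36 in the wild type (-0.13) on its brightest probe set, while the others were at 0.41 and -0.37.

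Of the 13 remaining members above the floor, 8 lay above 0 and 5 below, with a median of 0.02 and none past the size rule. Zbtb11 read 7.55 in the knockout and 7.95 in the wild type (-0.40). Zbtb44 read 8.66 in the knockout and 9.02 in the wild type (-0.36), with its other probe set above the floor at 0.11. Zbtb8a read 8.51 in the knockout and 8.17 in the wild type (0.34). These had the largest sizes of this group, and each was read above the floor by 1 or 2 probe sets. Zbtb41 stood at 8.52 in the knockout and 8.57 in the wild type (-0.06), with a second probe set at -0.26. Below 0 there were also Zbtb26 (-0.27) and Zbtb22 (-0.24). Above 0 were Zbtb34 (0.17), Zbtb8b (0.16), Zbtb39 (0.09), Zbtb11os1 (0.06), Zbtb43 (0.05), Zbtb6 (0.02) and Zbtb21 (0.02). Zbtb11os1 is a long noncoding RNA gene that the naming rule includes although it encodes no zinc finger protein.

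Under the floor were 4 members, for which RMA compresses differences. Zbtb7a, Zbtb3 and Zbtb12 lay just outside it, with Zbtb3 at 5.54 in the knockout and 5.31 in the wild type (0.23) and Zbtb12 at 5.35 in the knockout and 5.43 in the wild type (-0.08). Just inside it were Zbtb32, Zbtb45 and Zbtb48, the last with 5.91 in the knockout and 5.81 in the wild type. Zbtb37 was at 4.64 in the knockout and 4.69 in the wild type. A second probe set of Zbtb3, also under the floor, was at 0.63.

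Probe sets of one Zbtb gene often pointed both ways. Several probe sets above the floor were available for 14 members. Of these, 3 had them all on one side of 0 (21.4%), namely Zbtb43 and Zbtb46 above it and Zbtb41 below it. Over all genes with several such probe sets, 51.8% had them on one side. These shares were not matched for the number of probe sets, and more of them make a single side less likely. Nor were they matched for size, and smaller differences fall on both sides of 0 more easily. The median size was 0.14 over members above the floor and 0.19 over all genes above it. The 14 members had 42 such probe sets, with 7 in Zbtb20. The pooled SD within members was 0.25, close to the 0.28 over all genes. The distance between a member's lowest and highest probe set had a median of 0.24 and reached 0.90 for Zbtb14. In Zbtb10 and Zbtb20 the probe sets lay on opposite sides of 0 by more than the pooled SD each. The other 22 members above the floor rested on a single probe set there, so their differences have no repeat on these arrays.

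**Figure D3:**
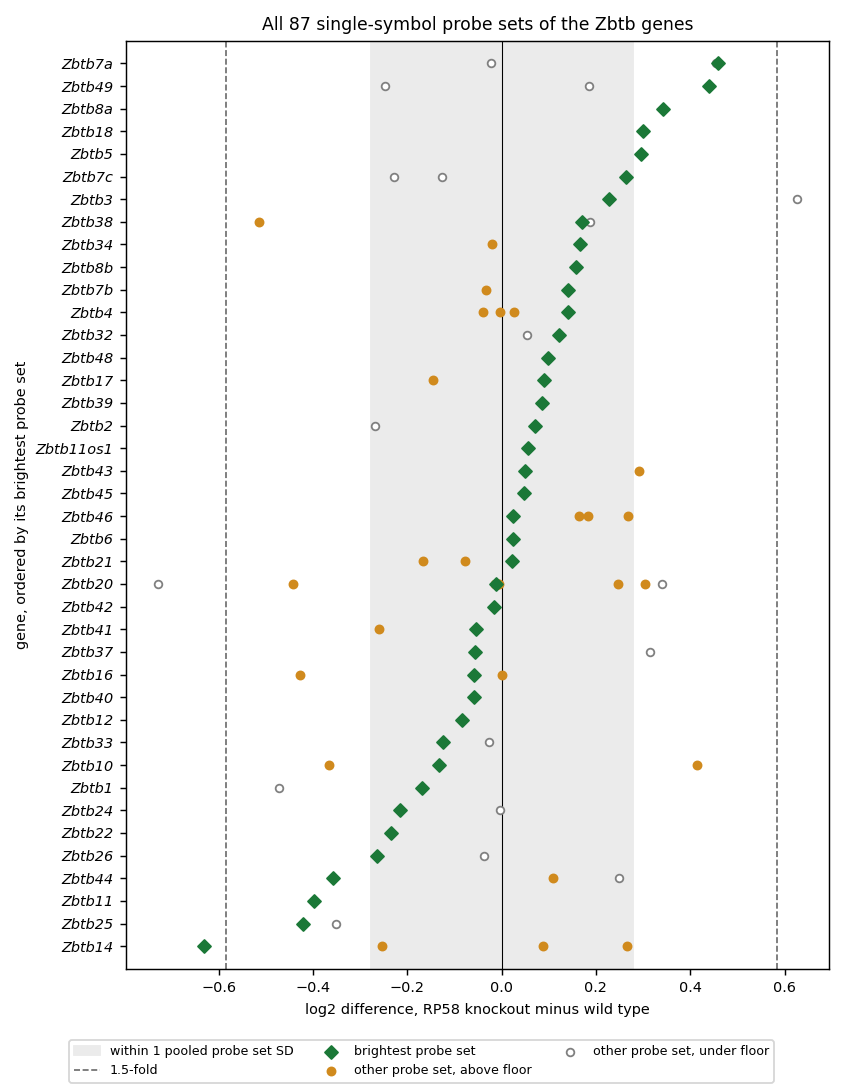
Difference of log2 signal, knockout minus wild type (horizontal axis), for all 87 probe sets of the 40 Zbtb genes, with the brightest probe set of each gene as a green diamond, others above the floor in orange and others under it as open circles. The grey band marks 1 pooled probe set SD (0.28) and dashed lines mark 1.5-fold; Zbtb14, Zbtb10, Zbtb20 and Zbtb38 show the widest spread among probe sets above the floor.

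Several members lie next to each other in the genome, in 5 pairs with no other protein-coding gene or member between them in the RefSeq gene order. On chromosome 12, Zbtb25 and Zbtb1 were both below 0 (-0.42 and -0.17). On chromosome 4, Zbtb8a and Zbtb8b were both above 0 (0.34 and 0.16), as were Zbtb34 and Zbtb43 on chromosome 2 (0.17 and 0.05). The pairs Zbtb6 and Zbtb26 on chromosome 2 (0.02 and -0.27) and Zbtb11 and Zbtb11os1 on chromosome 16 (-0.40 and 0.06) were split. All of these sizes were within 1.5-fold.

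Genes with the same protein design but other names were read as a companion list of 8, all above the floor. Of the 8, 1 was lower and 0 were higher, where 6.51% of all genes were lower and 3.83% higher. With so few genes this count is near those shares. The median difference was -0.17. The lower gene was Mynn (myoneurin), a BTB zinc finger gene known for its expression in the neuromuscular system, with 6.90 in the knockout and 7.80 in the wild type (-0.90, 1.87-fold lower). Of its other 3 probe sets above the floor, one was at -0.99 and the others at -0.14 and -0.30, so all 4 pointed down. Hic2 was at -0.50 on its brightest probe set, with others at -0.19 and 0.36. Zfp131 was at -0.37, and Hic1 (-0.18), Patz1 (-0.17), Bcl6 (-0.12), Bcl6b (-0.06) and Gzf1 (0.16) were within 1 pooled SD. The lower Mynn value stood on the same arrays as the lower muscle fibre markers described below, and the part of those in it was not tested.

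Partners of BTB proteins were read as a list of 24 genes for corepressors, histone deacetylases, DNA methyltransferases and ubiquitin ligase parts. Of these, 22 were read, all above the floor, with 1 higher, 0 lower and a median of 0.02, where 3.83% of all genes were higher and 6.51% lower, so the count is near the background. The higher gene was Mta2, a subunit of the NuRD deacetylase complex, with 8.03 in the knockout and 7.39 in the wild type (0.64, 1.56-fold). Gps2, a subunit of the NCoR complex, lay just short at 0.57. Hdac2, a deacetylase of the Sin3 and NuRD complexes, read 9.94 in the knockout and 10.39 in the wild type (-0.45), and its second probe set, at -0.70, was past the 1.5-fold line. Cul3, the ubiquitin ligase scaffold that takes BTB proteins as adaptors, read 8.90 in the knockout and 9.33 in the wild type (-0.43), and all 5 of its probe sets were below 0, from -0.61, past the 1.5-fold line, to -0.29. Dnmt3a, a DNA methyltransferase that RP58 is known to bind, read 9.02 in the knockout and 9.05 in the wild type.

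The Id genes, known targets of RP58, had a median of 0.46, with 2 of 4 higher, where 3.83% of all genes were. Id3 read 9.99 in the knockout and 9.22 in the wild type (0.78), and Id1 read 9.05 in the knockout and 8.39 in the wild type (0.67). Id2 was at 0.25 with a second probe set at 0.63, and Id4 at 0.02 with probe sets from -0.12 to 0.41. The same arrays differed in sex-linked transcripts and in the tissue markers described below. The part of either in the Id values was not tested.

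By their medians, markers of muscle fibre, liver, mesothelium and lung epithelium differed more than the Zbtb genes did. These lists were chosen with earlier results of these data known, so the contrast is a description only. The lymphocyte, dendritic cell and erythroid lists had medians of 0.10, -0.07 and 0.03. Over all genes above the floor, 3.83% were higher and 6.51% lower. Of 8 muscle fibre markers, 7 were lower and 0 were higher; the median was -1.24, led by Casq1 (-2.34), Myh8 (-1.94), Tnnt3 (-1.72) and Ckm (-1.42). Of 8 liver markers, 6 were higher and 0 lower (median 0.77), with mean signals of 13.60 in the knockout and 12.87 in the wild type. Of 5 mesothelium markers, 4 were higher and Wt1 was at -0.12 (median 0.68), with means of 10.50 in the knockout and 9.89 in the wild type. Of 6 lung epithelium markers, 4 were above the floor and 3 of them higher, led by Sftpc (3.64), with Sftpb at 0.12. Under the floor, Sftpa1 was at 1.33 and Scgb1a1 at -0.47. The means over the 6 were 7.22 in the knockout and 6.14 in the wild type. Of 6 nerve markers, 4 were read and 3 were above the floor, with 0 past the rule and a median of 0.12. The part of these tissues in the Zbtb values was not tested. The plot of gene lists shows the Zbtb genes gathered around 0 beside these lists.

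**Figure D4:**
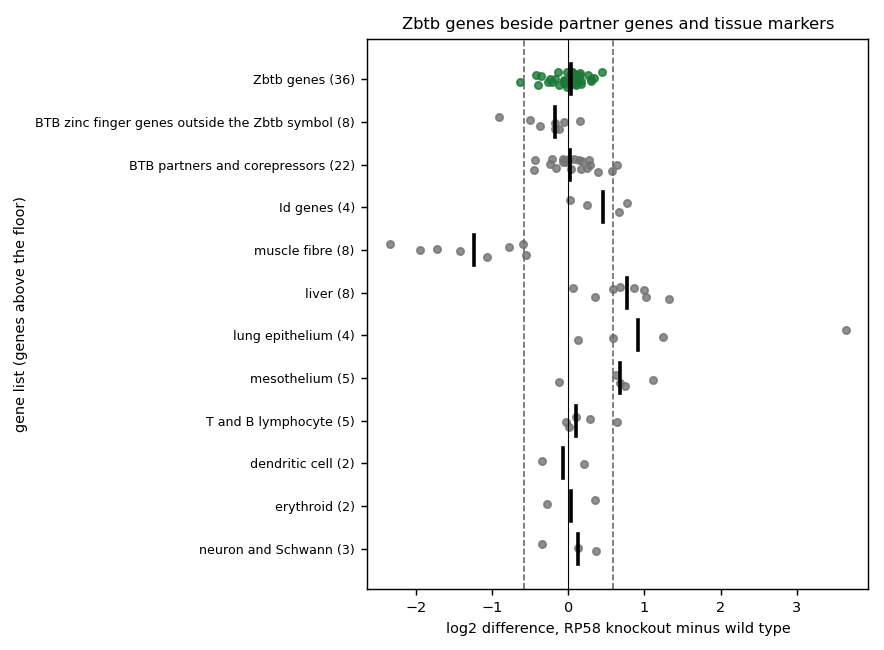
Difference of log2 signal, knockout minus wild type (horizontal axis), for genes above the floor in each list (number in brackets), 1 point per gene and a black bar at the median. The Zbtb genes centre on 0.04, muscle fibre markers on -1.24 and liver markers on 0.77, and dashed lines mark 1.5-fold.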

How the data were processed

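Total RNA from diaphragm muscle was hybridised to 1 Affymetrix array for each genotype. Per the series' design text and the submitters' processing notes, the authors computed signals with RMA, and Affymetrix Expression Console 1.1 is named. Deposited values are thus RMA signals on a log2 scale for each probe set, normalised between arrays by the authors, which removes any difference in total RNA. The sources used here do not state which arrays were normalised together, and RMA has no detection call.

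From these values, probe sets were named through the platform annotation, and 34945 of 45101 carried 1 symbol, without 64 control probe sets. All members kept their symbol in a RefSeq gene table (assembly GRCm38.p6). Promoter sequences are RefSeq's. Differences were taken in pandas 2.3.3 (Python 3.11.15), and loess used statsmodels 0.14.6 with a fraction of 0.3. With 1 array per group there was no test; a size rule took its place. The members and lists were chosen with earlier results of these data known. Values are given for Zbtb18, Zbtb42, members past the rule, the 5 members with the highest and the 5 with the lowest signals, those with probe sets on opposite sides of 0 by over 0.28, and those next to the floor, and then by role group. Zbtb2, Zbtb17 and others are added beyond that rule. Alternatives changed the probe set, the floor, the centring, the probe set kinds, the size rule and the members counted.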

Additional observations from a re-analysis of the deposited data

How the results depend on the processing

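The count of members higher by the size rule was 0 under every alternative run. The count of members lower, 1 in the setting reported, was 0 with probe sets averaged per gene, 0 with the next brightest probe set (an alternative chosen after seeing the data) and 0 with a 2-fold rule. Under the mean Zbtb14 was at -0.13 and under the next brightest probe set at -0.25, since its probe sets disagree. The members' median ran from -0.03 (mean over probe sets) to 0.05 (without the X-linked Zbtb33, added after seeing the data). Zbtb18, with 1 probe set, had no second reading. Of 231 values of the other 35 members under alternatives, 223 kept their side of the rule and moved by less than 0.28. Many of these could not move. A changed floor leaves a member's value as it was, and the next brightest choice does so for members with 1 probe set above the floor. The count therefore does not measure stability. The exceptions were in Zbtb7c, Zbtb10, Zbtb14, Zbtb20, Zbtb38 and Zbtb44, all with another choice of probe sets. Leaving out Zbtb8os was not run, since its probe sets carry several symbols and it was no member. No paired analysis was possible because each genotype has 1 array. Signals near the floor limit Zbtb3, Zbtb7a, Zbtb12, Zbtb32 and Zbtb37.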

Other observations

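Another 5 probe sets name a Zbtb gene together with a second gene and were left out of the members. The one shared by Zbtb38 and E030011O05Rik differed by 0.06. The 4 shared by Zbtb8os, whose product archease is no zinc finger protein, and the gene Gm8539 differed by 0.20, 0.22, -0.26 and -0.35, so they too lay within 1.5-fold and on both sides of 0.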
